A study of Homo sapiens with 8 samples.

Results

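The libraries of 3 edited derivatives of HEK293T cells, labelled sgKDM5C, sgKDM6A and sgKMT2B, were pooled as one side and compared with the unedited line (WT), to describe the transcript changes that the edited lines shared. All 8 libraries of the series entered, with 6 libraries on the knockout side (2 for each knockout) and 2 on the WT side. A gene was counted in the common response when the mean of the 3 knockouts differed from WT at an adjusted p under 0.05 (edgeR quasi-likelihood test, Benjamini-Hochberg) and all 6 knockout libraries lay on one side of both WT libraries. Of 17527 genes tested, 3361 met both conditions, 1597 as rises and 1764 as falls.

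HEK293T is a line of human embryonic kidney cells that carries the SV40 large T antigen. The cells were cultured without any stated treatment, so the groups differ by genotype alone as labelled: WT, KDM5C knockout, KDM6A knockout and KMT2B knockout. Poly(A) RNA was sequenced. The labels do not say whether a knockout was 1 clone or a pool of cells, whether WT cells went through a control guide, or whether replicate libraries were grown as separate cultures. P-values of the pooled test therefore cover only the spread between replicate libraries within a group, and part of it may be technical. They do not cover differences between the edited lines or between lines of 1 genotype.

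KDM5C removes methyl groups from lysine 4 of histone H3, KDM6A removes them from lysine 27, and KMT2B adds them to lysine 4. The genes that led the common response belong to families with known roles. Immediate early genes such as JUN, ATF3 and KLF6 encode unstable transcription factors whose transcripts rise within minutes of growth factor or stress signals. RHOB is a short-lived small GTPase of endosomes, and its transcript is itself an early response transcript. EIF5 is the GTPase-activating protein that lets the initiating ribosome commit to a start codon.

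WT replicate 2 held 15868353 counts, the fewest of all libraries, and the other 7 held between 25062543 and 27591724, so it stood apart in depth. It also stood apart in base composition. In the quintile of genes with the lowest transcript GC content, the median log2 difference was 0.23 between WT replicates 1 and 2, 0.04 between the knockout libraries and WT replicate 1, and 0.29 between the knockout libraries and WT replicate 2. The root mean square log2 difference between 2 libraries had a median of 0.822 over the 12 pairs of a WT and a knockout library and of 0.837 over the 12 pairs of 2 different knockouts, beside 0.479 to 0.553 for the 4 replicate pairs. The distance of WT from the knockouts was thus of the size of the distance between knockouts. Markers of HEK293T were present, with VIM at 400 to 646 CPM (counts scaled by library size and TMM factors) and LIN28B at 39.2 to 56.3 CPM, while LHX1 did not exceed 0.198 CPM. Among defining markers of blood, endothelial, fibroblast, liver and squamous cells, CD3E, HBB and KRT5 had 0 counts in every library, PTPRC, PECAM1, CDH5, COL1A2 and TP63 did not exceed 0.26 CPM, and LUM reached 2.09 CPM.

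JUN (ENSG00000177606, chromosome 1, 58780788 to 58784327 on GRCh38, minus strand), a subunit of the AP-1 transcription factor, was among the most abundant of the fallen transcripts. Its level was 2418 and 2568 CPM in the WT libraries. It was 227 and 654 CPM in sgKDM5C, 243 and 388 CPM in sgKDM6A, and 250 and 564 CPM in sgKMT2B. The WT and knockout ranges were far apart, and in each knockout the first replicate was the lower one. The pooled log2 change was -2.70 (SE 0.29, adjusted p = 4.451e-05), a 6.50-fold decrease, and the 3 knockouts did not pass the test for a difference among themselves (adjusted p = 0.586).

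RHOB (ENSG00000143878, chromosome 2, 20447074 to 20449445, plus strand) stood at 1799 and 2311 CPM in WT. In the knockouts it stood at 134 and 390 CPM (sgKDM5C), 99.3 and 196 CPM (sgKDM6A), and 221 and 481 CPM (sgKMT2B). As the rule requires, no library of one side reached the other, and replicate 1 was the lower one in every knockout. The pooled log2 change was -3.11 (SE 0.31, adjusted p = 2.352e-05). In a fit of only replicate 2 of each knockout against WT, with the knockouts taken as 1 group, an alternative chosen after seeing the data, the log2 change was -2.53 and the call was lost (adjusted p = 0.0783).

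EIF5 (ENSG00000100664, chromosome 14, 103333544 to 103345025, plus strand) moved the other way. Its level was 92.9 and 70.8 CPM in WT. It was 377 and 335 CPM in sgKDM5C, 334 and 349 CPM in sgKDM6A, and 380 and 353 CPM in sgKMT2B, so all 6 knockout libraries lay within a narrow band above WT. The pooled log2 change was 2.11 (SE 0.11, adjusted p = 1.143e-07), with 2.12, 2.06 and 2.16 in sgKDM5C, sgKDM6A and sgKMT2B (adjusted p = 0.757 for a difference among them). EIF5 was 1 of the 5 most even common response genes changed at least 2-fold, with TRIB1, MHENCR, SERTAD1 and TIMP3.

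**Figure D1:**
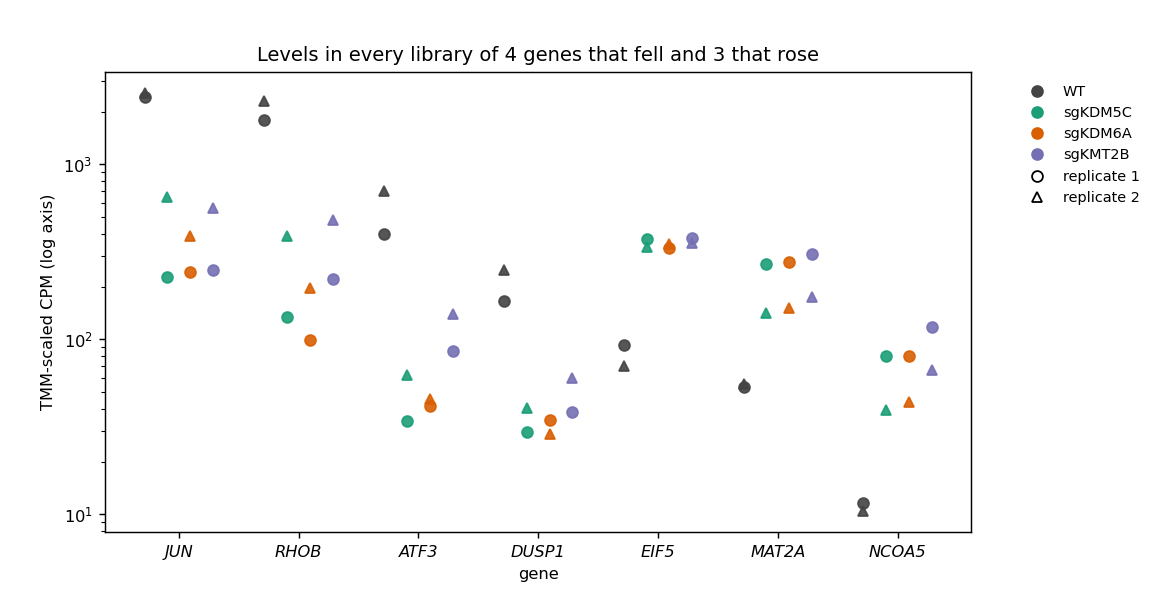
Level of 7 genes in each of the 8 libraries, in TMM-scaled CPM on a log axis, with WT in grey, a colour for each knockout, circles for replicate 1 and triangles for replicate 2. As the rule requires, JUN, RHOB, ATF3 and DUSP1 lie lower in all 6 knockout libraries than in both WT libraries. EIF5, MAT2A and NCOA5 lie higher in the same way. For JUN, RHOB, MAT2A and NCOA5 replicate 1 of every knockout lies farther from WT than replicate 2.

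The pooled test called 4873 genes, or 27.8% of those tested, 2135 higher (12.2%) and 2738 lower (15.6%) in the knockouts. The side requirement alone was met by 2190 genes above WT (12.5%) and 2220 below (12.7%). Both conditions together held for 1597 rises (9.11%) and 1764 falls (10.1%), and these 2 percentages are the background for the counts of gene groups below. They are not the background where a WT replicate is left out, since the side requirement is then against 1 WT library and so looser. The median log2 change of the common response was 0.62 for rises and -0.56 for falls, and 356 genes in each direction changed at least 2-fold. The change was at least 2-fold in each knockout by itself for 218 rises and 153 falls.

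Another reading of the design takes the 6 knockout libraries as 6 replicates of 1 group, so that differences between knockouts count as error. It is stricter in that respect only. The 6 libraries are 2 from each of 3 knockouts, and the fit treats them as independent, which libraries of the same knockout are not. That 2-group fit called 283 genes higher (1.61%) and 274 lower (1.56%), and with the side requirement 283 rises (1.61%) and 272 falls (1.55%), or 555 genes (3.17%), all of them shared with the common response. JUN (adjusted p = 0.0117), RHOB (0.0201) and EIF5 (0.000336) were among them. Without WT replicate 2, the 4-group fit gave 966 rises and 1315 falls, of which 1841 genes were shared with the full set.

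Each knockout against WT called 3969 (sgKDM5C, 22.6%), 4759 (sgKDM6A, 27.2%) and 4931 genes (sgKMT2B, 28.1%). These 3 comparisons share both WT libraries, so a high or low value in WT enters all of them, and the number called in the same direction in each of them (614 higher, 3.5%, and 580 lower, 3.31%) is given as a description. The edited lines also differed from each other. Pairs of knockouts differed at 3468 genes (sgKDM5C and sgKDM6A, 19.8%), 3882 genes (sgKDM5C and sgKMT2B, 22.1%) and 4356 genes (sgKDM6A and sgKMT2B, 24.9%). The test for any difference among the 3 knockouts called 6208 genes (35.4%), and within the common response 346 of 1597 rises (21.7%) and 677 of 1764 falls (38.4%). Among the 1512 genes called in the pooled test that failed the side requirement, it called 81.1%. The side requirement itself favours genes on which the knockouts agree, so these shares follow in part from the rule. The largest change was in sgKMT2B for 617 rises and 636 falls, in sgKDM6A for 535 and 589, and in sgKDM5C for 445 and 539.

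The replicates of the knockouts also differed along the same genes. Among common rises with at least 5 CPM, replicate 1 of all 3 knockouts was farther from WT than replicate 2 for 644 of 1313 genes (49.0%), and replicate 2 was farther for 104 (7.92%). Among common falls these counts were 607 of 1524 (39.8%) and 98 (6.43%). Over all 11480 genes tested at that level, replicate 1 was the higher one in all 3 knockouts for 25.1% and the lower one for 22.5%. The labels give nothing that replicate numbers share across knockouts, and the part of this difference in the common response was not tested. With only replicate 1 of each knockout, the 2-group fit called 45 rises and 48 falls, and with only replicate 2 it called 2 and 6.

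The ranked falls, chosen by the knockout in which each changed least, were NEFM, RHOB, ATF3, JUN, SH2D3C, CCN1, DUSP1, KLF6, SOX4, RPS18, GEM, ERRFI1, MAFF, PNCK and TJP3. NEFM, a neurofilament subunit that HEK293T cells are known to express, went from 223 counts over the 2 WT libraries to 2 counts over the 6 knockout libraries. Scaled for library size this is a ratio of 443 (95% interval 121 to 3680, counting error only). Its WT level was only 5.58 and 5.72 CPM, and 5 of the 6 knockout libraries had none.

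ATF3, a stress-induced transcription factor of the ATF/CREB family, was at 398 and 707 CPM in WT and at 34.1 to 139 CPM (median 54.2) in the knockouts, a log2 change of -3.15 (SE 0.21). The fall was smaller in sgKMT2B (-2.29) than in sgKDM5C (-3.51) and sgKDM6A (-3.66), and the test for a difference among them passed (adjusted p = 0.00275). CCN1, a secreted matricellular protein, had 256 and 313 CPM in WT and 26.9 to 56.6 CPM in the knockouts, with the smallest adjusted p among the named genes (log2 change -2.86, SE 0.10, adjusted p = 1.04e-09). SOX4, a transcription factor of progenitor cells, was at 293 CPM in both WT libraries and at 75.2 to 123 CPM in the knockouts (log2 change -1.62, SE 0.14), with changes of -1.68, -1.56 and -1.61 in the 3 lines. RPS18 has near-identical copies that the counting may split, so its value (14.9 and 12.9 CPM in WT, 0.510 to 8.32 CPM in the knockouts) is uncertain, and its call was lost in the 2-group fit (adjusted p = 0.12).

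The ranked rises included SAMD9, CHAC1, NCOA5, EIF5, ZNF780B, MAT2A, WWC3, LINC00638, ZNF407-AS1, SH3BP5L, B3GALT9, ZNF181, ZNF658 and ZNF780A. NCOA5, a coregulator of nuclear receptors, had 11.6 and 10.4 CPM in WT. In the knockouts it had 80.2 and 39.5 CPM (sgKDM5C), 79.8 and 43.8 CPM (sgKDM6A), and 117 and 67.2 CPM (sgKMT2B). The lowest knockout library was well above WT, the first replicate of each pair was the higher one, and the log2 change was 2.66 (SE 0.32, adjusted p = 0.000106).

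MAT2A makes S-adenosylmethionine, the methyl donor of histone and DNA methylation. It was at 53.4 and 55.8 CPM in WT and at 271 and 142 CPM (sgKDM5C), 277 and 150 CPM (sgKDM6A), and 307 and 175 CPM (sgKMT2B) in the knockouts. Every knockout library exceeded WT, as the rule requires, with replicate 1 again the higher, and the log2 change was 2.01 (SE 0.29, adjusted p = 0.000312). SAMD9, an interferon-induced antiviral protein, had 1.11 and 0.455 CPM in WT and 5.17 to 10.1 CPM in the knockouts (log2 change 3.35, SE 0.34). WWC3, a regulator of the Hippo pathway, rose unevenly, with log2 changes of 3.35, 1.76 and 2.73 in sgKDM5C, sgKDM6A and sgKMT2B (adjusted p = 0.000156 for a difference).

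**Figure D2:**
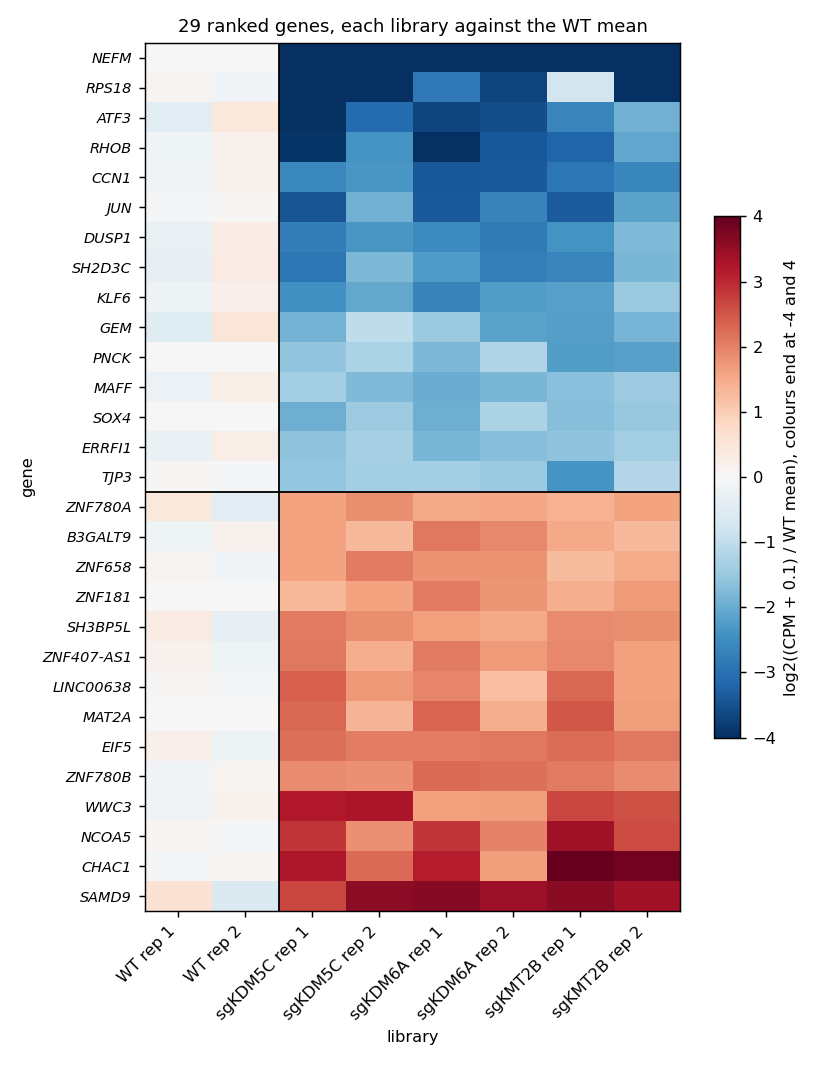
Log2 ratio of each library to the WT mean, on CPM with 0.1 added, for the 15 ranked falls (above the line) and 14 of the ranked rises (below it), with the WT libraries in the first 2 columns and colours that end at -4 and 4. Every knockout column is blue for the falls and red for the rises, as the rule requires. RPS18 in sgKMT2B replicate 1 (8.32 CPM) is the palest knockout cell among the falls.

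Promoters of 4 genes that moved in every knockout are shown for the motifs they hold, a pair that fell and a pair that rose. Each is the stretch before the transcription start in RefSeq's GRCh38.p14 table, written 5′ to 3′ on the gene's strand, with TATAAA, TGACGTCA (the cyclic AMP response element, CRE) and CCAAT, on either strand, in capitals. DUSP1 and RHOB fell, and MAT2A and HEXIM1 rose.
DUSP1 (chr5:172771196-172771445, minus): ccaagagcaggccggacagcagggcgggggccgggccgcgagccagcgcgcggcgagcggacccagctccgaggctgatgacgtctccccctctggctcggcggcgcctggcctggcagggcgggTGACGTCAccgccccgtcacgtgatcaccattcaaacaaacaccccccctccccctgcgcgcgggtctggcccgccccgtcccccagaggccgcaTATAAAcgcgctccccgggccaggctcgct
RHOB (chr2:20446824-20447073, plus): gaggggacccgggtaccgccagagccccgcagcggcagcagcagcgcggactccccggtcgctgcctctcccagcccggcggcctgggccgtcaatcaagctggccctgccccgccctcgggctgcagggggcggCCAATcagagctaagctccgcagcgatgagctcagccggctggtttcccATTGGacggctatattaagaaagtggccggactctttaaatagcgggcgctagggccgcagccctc
MAT2A (chr2:85538918-85539167, plus): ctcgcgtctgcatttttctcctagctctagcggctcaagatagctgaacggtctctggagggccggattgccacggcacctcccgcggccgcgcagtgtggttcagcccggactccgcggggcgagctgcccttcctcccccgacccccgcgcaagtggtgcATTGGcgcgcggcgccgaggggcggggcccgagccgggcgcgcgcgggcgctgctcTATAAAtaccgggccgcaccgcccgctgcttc
HEXIM1 (chr17:45148225-45148474, plus): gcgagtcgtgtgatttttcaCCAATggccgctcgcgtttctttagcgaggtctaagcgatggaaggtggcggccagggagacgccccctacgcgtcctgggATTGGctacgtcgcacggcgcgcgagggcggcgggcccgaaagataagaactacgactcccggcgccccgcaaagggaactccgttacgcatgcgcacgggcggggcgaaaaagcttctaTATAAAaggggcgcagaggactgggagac
The DUSP1 window holds 1 TGACGTCA at position -125 and 1 TATAAA at -30, RHOB holds CCAAT on both strands, and both risen genes hold TATAAA (MAT2A at -32, HEXIM1 at -29), with positions counted back from the start site. The 4 genes were picked for such motifs and do not stand for all rises or falls. The windows of JUN and SOX4, which also fell, hold neither TATAAA nor TGACGTCA.

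For the shares below, each window ran from 250 bases before the start site to 50 bases after it, so it is longer than the stretches printed above. Promoter windows matched by symbol for 8630 of the 17527 genes tested (49.2%), and each motif was searched on both strands. TGACGTCA was in 3.56% of all of them, 2.99% of common rises and 4.77% of common falls, and in 13 of 144 falls that also passed the 2-group fit (9.03%). TATAAA had shares of 5.35%, 5.09%, 5.68% and 9.03% in the same order. GGGCGG, the GC box, was in 72.0% of all windows, 70.3% of rises and 79.7% of falls. The AP-1 motif TGANTCA was in 3.97% of all, 4.10% of rises and 2.61% of falls, CCAAT in 37.1%, 39.8% and 37.7%, and the E-box CACGTG in 10.1%, 11.3% and 12%. In the smaller set of genes changed at least 2-fold in each knockout, TGANTCA was in 6 of 49 falls (12.2%) and 11 of 90 rises (12.2%), TGACGTCA in 4 (8.16%) and 0, TATAAA in 5 (10.2%) and 8 (8.89%), and GGGCGG in 71.4% and 53.3%. These shares describe letters in the windows and were not tested.

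Of 14 AP-1 factors tested, 7 fell (50%), 1 rose (7.14%) and 6 were not called, beside the background of 10.1% and 9.11%, with a list median of -0.46 beside -0.01 over all genes tested, and 5 of the falls also passed the 2-group fit. After ATF3 and JUN came FOSL2, a FOS-family partner of JUN, with 18.8 and 24.7 CPM in WT and 6.77 to 8.99 CPM in the knockouts (log2 change -1.45, SE 0.14), and MAFF, a small MAF protein, with a log2 change of -1.71 (SE 0.19). JDP2, which represses AP-1 targets, was the member that rose (1.36, SE 0.22), lost its call in the 2-group fit, and is named after its value was seen. Classical members did not all move: FOS (log2 difference -0.95, adjusted p = 0.0638), FOSB (-0.30, 0.33) and JUNB (0.21, 0.231), also picked after their values were seen, did not pass the test.

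Of 49 other early response genes, 23 fell (46.9%) and 2 rose (4.08%), with a median of -0.57, and 15 falls passed the 2-group fit. KLF6, a zinc-finger factor induced by serum, was at 168 and 226 CPM in WT and 30.5 to 69.1 CPM in the knockouts (log2 change -2.17, SE 0.16). GADD45A, a growth arrest and DNA damage gene, was at 119 and 144 CPM in WT and 23.6 to 53.7 CPM in the knockouts (-1.86, SE 0.10). MYC fell by 2.69 on the log2 scale in sgKDM5C but by 0.95 in sgKDM6A and 1.25 in sgKMT2B (adjusted p = 5.726e-06 for the difference), and its pooled call was lost in the 2-group fit (adjusted p = 0.0983). TRIB1, a pseudokinase, was the opposite case, at -1.06, -1.04 and -1.06 in the 3 knockouts. The 2 rises, EGR1 (log2 change 1.41, from 1.94 and 1.95 CPM in WT) and TOB1 (0.51), both lost their calls in the 2-group fit and are named after their values were seen.

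**Figure D3:**
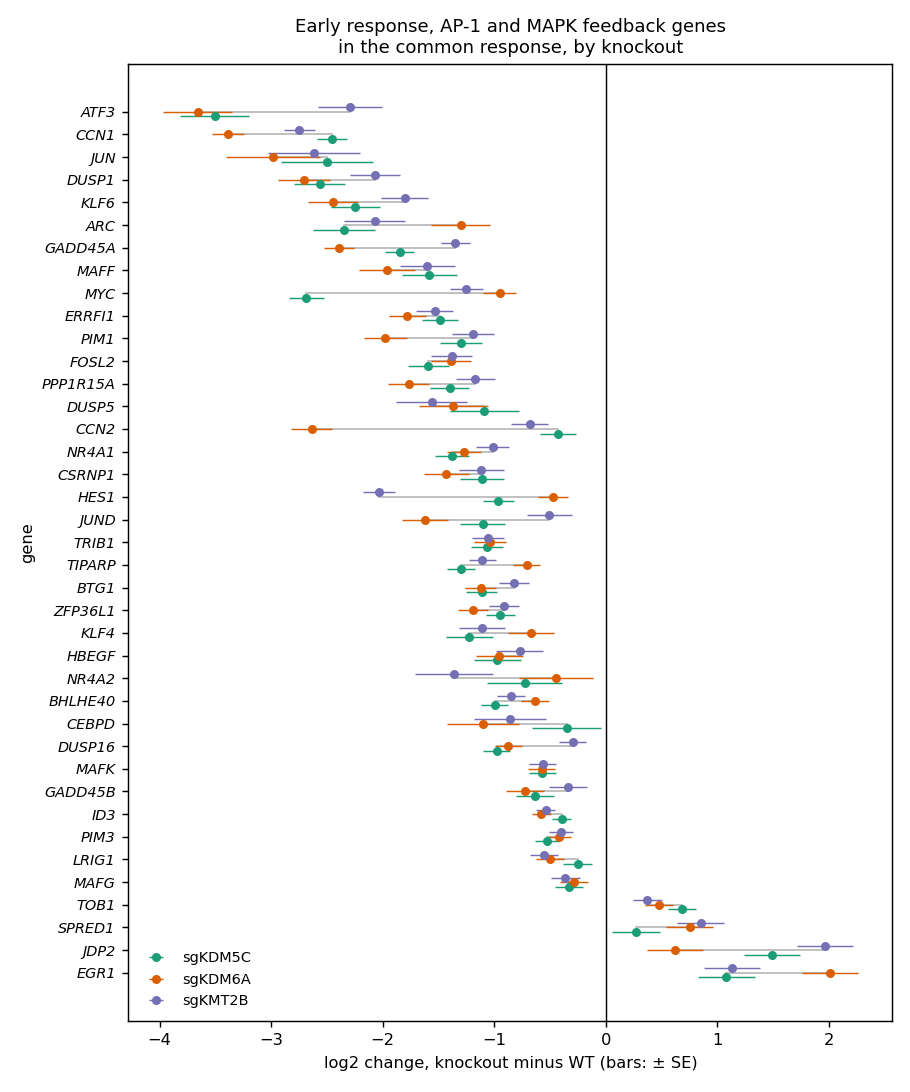
Log2 change against WT in each knockout, with SE bars, for the common response genes among AP-1 factors, other early response genes and MAPK feedback inhibitors, ordered by pooled change. FOSL2, TRIB1 and MAFK cluster tightly, MYC, HES1 and CCN2 spread widely between knockouts, and JDP2, EGR1, TOB1 and SPRED1 lie on the rising side.

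Inhibitors that MAPK signalling induces against itself followed in part, with 5 falls and 1 rise among 19 tested (26.3% and 5.26%). DUSP1, a phosphatase that inactivates p38, JNK and ERK, was at 165 and 249 CPM in WT and 28.7 to 60.0 CPM in the knockouts (log2 change -2.45, SE 0.16, adjusted p = 1.402e-06). ERRFI1, an inhibitor of the EGF receptor, fell from 74.2 and 107 CPM to 25.2 to 35.2 CPM (-1.60, SE 0.12). DUSP5, a nuclear ERK phosphatase, fell by 1.34 on the log2 scale, but its WT replicates were 6.24 and 13.3 CPM and the call was lost without WT replicate 2.

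Of genes that act on actin, a pair is given by its values alone. ROCK2, a kinase that promotes actomyosin contraction, was at 22.4 and 17.3 CPM in WT and 23.8 to 37.6 CPM in the knockouts (log2 change 0.69, SE 0.13, lost in the 2-group fit), and VCL, a protein of focal adhesions, fell from 299 and 409 CPM to 196 to 267 CPM (-0.65, SE 0.11).

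EIF5 was an exception among initiation factors. Of 42 tested, 2 rose (4.76%) and 9 fell (21.4%), with a list median of -0.09. EIF4A2, an RNA helicase of the cap-binding complex, was at 342 and 330 CPM in WT and 150 to 234 CPM in the knockouts (log2 change -0.82, SE 0.12). EIF1B, a paralog of the start codon fidelity factor EIF1, was at 90.1 and 103 CPM in WT and 57.1 to 65.9 CPM in the knockouts (-0.64, SE 0.09). EIF1 itself had a log2 difference of -0.21 that did not pass the test (adjusted p = 0.061). Without WT replicate 1, both counts of the list were higher, as were those over all genes.

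Targets of ATF4, the factor that is translated when amino acids run short, had 6 rises (23.1%) and 2 falls (7.69%) among 26, and 3 rises passed the 2-group fit. CHAC1, which degrades glutathione, was at 3.26 and 3.71 CPM in WT and 11.4 to 65.3 CPM (median 32.4) in the knockouts, a log2 change of 3.19 (SE 0.39, adjusted p = 0.000122). SESN2, an inhibitor of mTORC1, rose from 84.9 and 99.6 CPM to 140 to 304 CPM (1.24, SE 0.16), and DDIT4, another one, from 67.0 and 75.1 CPM to 96.1 to 175 CPM (0.93, SE 0.13). SHMT2, a mitochondrial enzyme of the serine pathway, fell by 0.38 on the log2 scale, with -0.58, -0.50 and -0.07 in the 3 knockouts, and lost its call in the 2-group fit. Among polyamine genes SAT1, which acetylates spermidine and spermine for export, fell from 123 and 131 CPM to 22.7 to 59.1 CPM (log2 change -1.66, SE 0.13).

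Splicing regulators had the highest share of rises among the lists drawn, 11 of 36 (30.6%), beside 5 falls (13.9%). HNRNPM was at 228 and 202 CPM in WT and 356 to 461 CPM in the knockouts (log2 change 0.92, SE 0.09, adjusted p = 3.067e-05). CIRBP, a protein induced by mild cold, rose by 0.88 (SE 0.10), with 1.2 in sgKDM5C, 0.83 in sgKDM6A and 0.61 in sgKMT2B. CLK3, a kinase that phosphorylates SR proteins, fell from 109 and 119 CPM to 55.0 to 70.8 CPM (-0.88, SE 0.09), and SRSF4 fell by 0.57 on the log2 scale. In the 2-group fit 6 rises and 2 falls held.

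Of 20 genes of transcription elongation and pausing, 2 rose (10%) and 3 fell (15%), near the shares over all genes, with a median of 0.01. HEXIM1, which holds the elongation kinase P-TEFb inactive, was at 14.1 and 15.3 CPM in WT and 27.5 to 48.8 CPM in the knockouts (log2 change 1.36, SE 0.19, adjusted p = 0.000284). MEPCE, which caps the 7SK RNA of the same complex, rose from 57.1 and 47.5 CPM to 83.7 to 157 CPM (1.23, SE 0.17). NELFA, a subunit of the pausing factor NELF, was at 152 and 157 CPM in WT and 65.7 to 104 CPM in the knockouts (-0.85, SE 0.07). HEXIM1 and MEPCE were the 2 rises, NELFA was 1 of the falls, and all 3 held in the 2-group fit. BRD2, a bromodomain reader of acetylated histones, fell from 151 and 182 CPM to 59.9 to 90.2 CPM (-1.27, SE 0.09, adjusted p = 2.091e-06).

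Genes of the extracellular matrix fell in 19 of 48 cases (39.6%) and rose in 1 (2.08%), with a median of -0.42, and 6 of the falls passed the 2-group fit. COL2A1, the collagen of cartilage, was at 4.75 and 4.22 CPM in WT and 0.0793 to 0.643 CPM in the knockouts (log2 change -3.99, SE 0.33). ADAMTS1, a secreted protease, was at 507 and 521 CPM in WT and 153 to 298 CPM in the knockouts (-1.22, SE 0.13), and TIMP3, a matrix-bound protease inhibitor, changed evenly, by -1.24 in the pooled test (SE 0.11). HSPG2, the basement membrane proteoglycan perlecan, fell by 1.91 on the log2 scale in sgKDM6A and by 0.55 in sgKMT2B (adjusted p = 1.665e-05 for the difference), and its call was lost in the 2-group fit (adjusted p = 0.115). Of 16 markers of fibroblasts and endothelium 9 were tested, of which 2 fell (COL1A1 and PDGFRA, the latter not called without WT replicate 2), 0 rose and 7 were not called. Their summed level went both ways. It was 57.3 and 59.2 CPM in WT, 33.5 and 36.1 CPM in sgKDM5C, 26.4 and 25.1 CPM in sgKDM6A, and 83.3 and 96.7 CPM in sgKMT2B. Their part in the matrix genes' falls was not tested. PECAM1, CDH5 and COL1A2 stayed under 0.3 CPM in every library, while the fibroblast markers DCN and LUM reached 0.602 and 2.09 CPM.

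Epithelial genes fell in 7 of 22 cases (31.8%) and rose in 0. Their summed level went both ways. It was 845.4 and 855.6 CPM in WT, 790.5 and 784.5 CPM in sgKDM5C, 579.1 and 575.3 CPM in sgKDM6A, and 936.3 and 1001 CPM in sgKMT2B. CDH1, the E-cadherin of epithelial junctions, was at 12.8 and 15.9 CPM in WT and 2.66 to 6.62 CPM in the knockouts (log2 change -1.57, SE 0.21), and TJP3, a tight junction scaffold, fell by 1.54. NOTCH pathway genes fell in 8 of 19 cases (42.1%), and 1 of them, DTX1, a regulator of NOTCH signalling, held in the 2-group fit (pooled log2 change -1.45, from 3.39 and 4.22 CPM in WT to 1.11 to 1.70 CPM in the knockouts). HES1, a repressor induced by NOTCH, changed by -0.96, -0.48 and -2.03 in sgKDM5C, sgKDM6A and sgKMT2B and lost its call there. Targets of YAP and TEAD fell in 7 of 28 cases (25%), CCN1 among them. CCN2, its relative, fell by 2.64 in sgKDM6A, by 0.43 in sgKDM5C and by 0.68 in sgKMT2B (adjusted p = 2.925e-06 for the difference), and lost its pooled call in the 2-group fit.

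**Figure D4:**
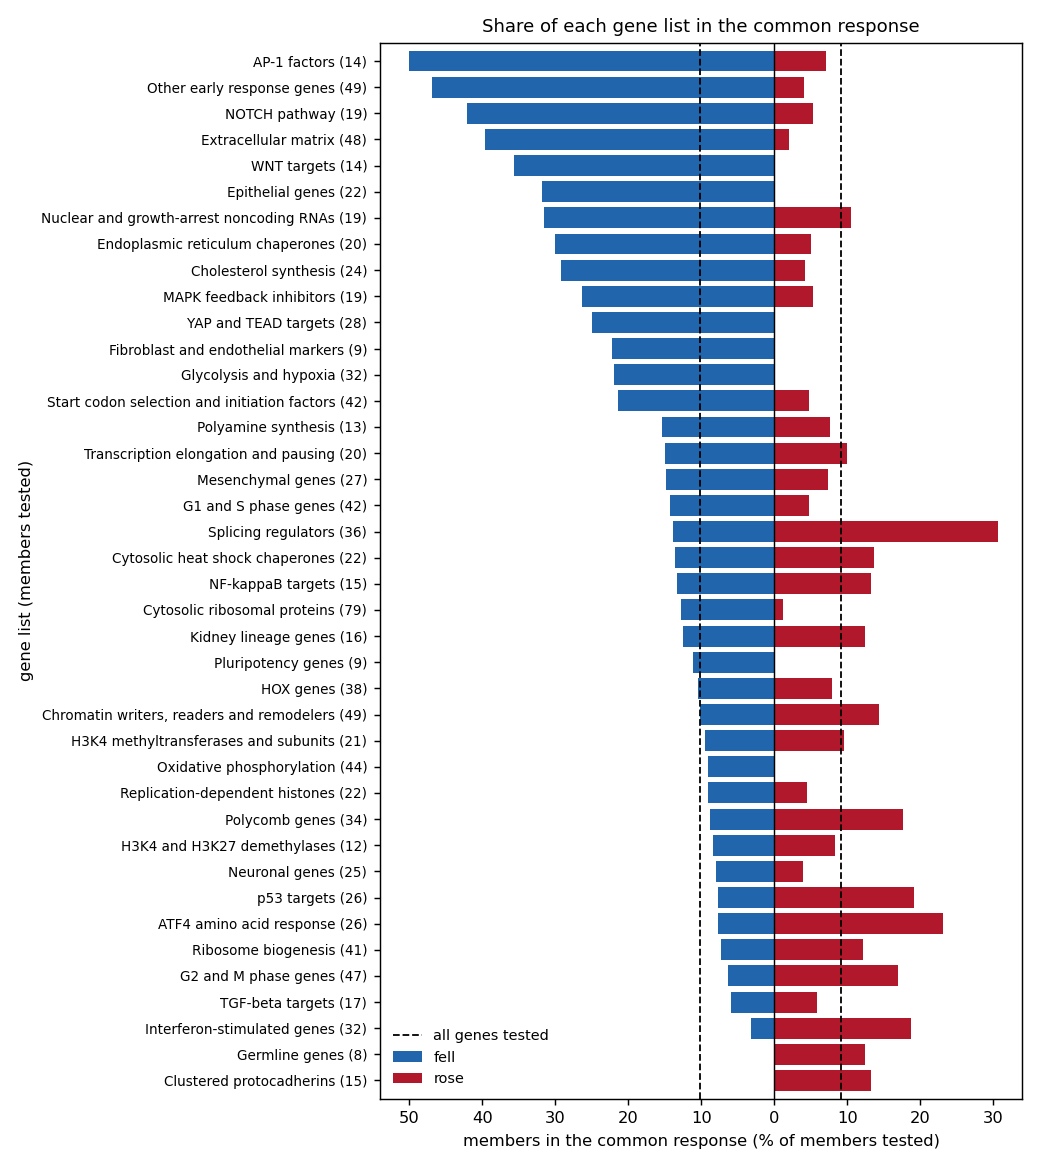
Percentage of tested members of each gene list drawn, with at least 8 tested members each, that rose (red, to the right) or fell (blue, to the left) in the common response, with the number tested in brackets and dashed lines at the shares over all genes tested, 9.11% and 10.1%. AP-1 factors (50% lower) and other early response genes (46.9%) head the falling side and splicing regulators (30.6%) the rising side.

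Genes of cholesterol synthesis fell in 7 of 24 cases (29.2%) and rose in 1, and 2 of the falls held in the 2-group fit. The list median was -0.05, with -0.24, 0.08 and -0.25 in sgKDM5C, sgKDM6A and sgKMT2B. INSIG1, which retains the sterol sensor in the endoplasmic reticulum, was at 137 and 151 CPM in WT and 45.7 to 83.3 CPM in the knockouts (log2 change -1.25, SE 0.13), MSMO1 fell by 1.06 and SQLE by 0.86, the latter not called in the 2-group fit (adjusted p = 0.0709). Chaperones of the endoplasmic reticulum fell in 6 of 20 cases, 1 of which held in the 2-group fit. The falls were led by HSPA5 (BiP), which was at 707 and 1019 CPM in WT and 375 to 583 CPM in the knockouts (-0.87, SE 0.10). Cytosolic heat shock genes split evenly, with 3 rises and 3 falls among 22, and DNAJA1, an HSP70 cochaperone, rose from 103 and 98.3 CPM to 168 to 249 CPM (1.00, SE 0.15). In the glycolysis and hypoxia list 7 of 32 fell (21.9%) and 0 rose: NDRG1, a stress-responsive gene, fell by 1.04, while the fall of the glucose transporter SLC2A3 lay mostly in sgKDM6A (-4.94, beside -0.74 and -0.50).

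Shares of falls among ribosomal protein and respiratory chain genes lay near that over all genes. Of 79 ribosomal protein genes 10 fell (12.7%) and 1 rose (1.27%), and RPL13A, at 4019 and 4243 CPM in WT and 2855 to 3275 CPM in the knockouts, changed by -0.43 (SE 0.06). The members' median log2 change depended on the WT library. It was -0.08 with both, 0.02 without WT replicate 1 and -0.17 without WT replicate 2. Many of these genes have processed copies, so single values are uncertain. Of 44 oxidative phosphorylation genes 4 fell (9.09%) and 0 rose, and their median log2 change was -0.05, or 0.01 without WT replicate 1.

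Cell cycle genes were counted by phase, and the difference between phases was not tested. Genes of G2 and M phase had 8 rises (17%) and 3 falls (6.38%) among 47, and genes of G1 and S phase 2 rises (4.76%) and 6 falls (14.3%) among 42. The median log2 change of the G2 and M list was 0.06, and 0.14 without WT replicate 1. CENPF, a kinetochore protein, was at 43.9 and 41.6 CPM in WT and 61.7 to 114 CPM in the knockouts (log2 change 1.18, SE 0.13). CDT1, which loads the replicative helicase, was at 665 and 622 CPM in WT and 295 to 445 CPM in the knockouts (-0.86, SE 0.10). Targets of p53 had 5 rises (19.2%) and 2 falls (7.69%) among 26: MDM2, the p53 ubiquitin ligase, rose by 0.91 and PHLDA3 by 1.07, yet neither held in the 2-group fit, and PHLDA3 changed by 0.93, 0.12 and 2.16 in the 3 knockouts. Interferon-stimulated genes had 6 rises (18.8%) and 1 fall (3.12%) among 32, with a list median of 0.235, or 0.05 without WT replicate 1.

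The targeted genes showed what pooling does to a change that belongs to 1 line. KDM6A was at 54.2 and 61.2 CPM in WT, 10.3 and 11.5 CPM in sgKDM6A, and 49.98 to 65.77 CPM in the other knockouts, so it was called in the pooled test (log2 change -0.82) but failed the side requirement. KDM5C and KMT2B met both conditions. KDM5C changed by -0.50 in its own knockout and by -0.25 and -0.21 in sgKDM6A and sgKMT2B. KMT2B changed by -1.03 in its own knockout and by -0.24 and -0.19 in the other two, and its pooled call was lost without sgKMT2B. In both, the pooled call was lost in the 2-group fit (adjusted p = 0.147 and 0.354). Among 49 other chromatin writers, readers and remodelers, 7 rose (14.3%) and 5 fell (10.2%), with a median of 0.03, and 2 rises and 1 fall held in the 2-group fit. These were HDAC1, a histone deacetylase (log2 change 0.49, SE 0.07), ARID2, a subunit of a SWI/SNF remodeler (0.83), and BRD2.

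The edge of the common response was thin for some members. EIF3I had a lowest WT value of 665.7 and a highest knockout value of 665.6 CPM and was counted as a fall, as was CECR2, with 45.07 and 45.05 CPM. AMPD2 (127.7 CPM on both sides) and PSMA4 (185.0 CPM on both sides) missed the side requirement by a log2 gap of -0.0002 and -0.0004. Requiring a gap of 1.2 times left 681 rises and 614 falls.

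Gene structure differed between the directions, as a description with no test. Among protein-coding genes with a GENCODE v29 model, the median GC content of the longest transcript was 49.3% over all tested, 44.4% in common rises and 53% in common falls. Coding genes with a single exon had 57 rises (19.7%) and 19 falls (6.55%) among 290, beside 10.1% and 11.6% of all coding genes tested. The GC quintiles held 2172 to 2175 genes each, fewer in all than were tested, so the shares over all genes are not their background. In the lowest quintile (31.3% to 41.0%), 18.7% of genes were common rises and 4.09% common falls. In the middle quintile these shares were 8.28% and 16.6%, and in the highest 8.42% and 17.1%. The GC difference between the WT replicates ran through the same lowest quintile, as given above. After each library's trend on GC content was removed with an offset in the fit, an alternative chosen after seeing the data, there were 1689 rises and 1671 falls, 2825 of them shared with the common response, and among named genes only EIF3I and EYA4 lost the call.

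**Figure D5:**
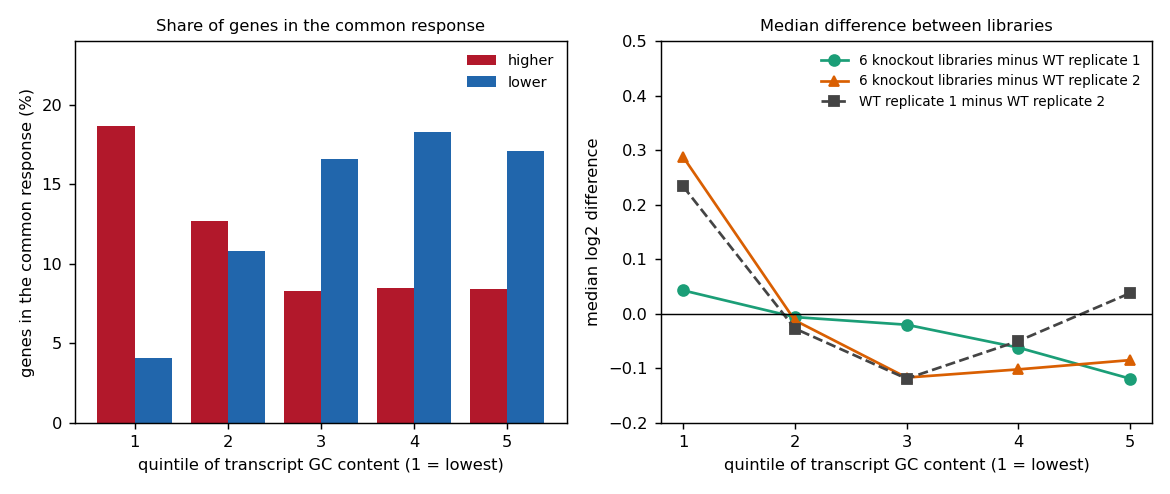
Left, percentage of genes in the common response, higher in red and lower in blue, for quintiles of transcript GC content (2172 to 2175 genes each). Right, median log2 difference between the knockout libraries and each WT library and between the WT libraries, for the same quintiles, where the curve against WT replicate 2 starts at 0.29 and the curve against WT replicate 1 at 0.04.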

How the data were processed

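Poly(A) RNA of HEK293T cells was sequenced in 8 libraries, 2 in each of 4 groups, and groups and replicate numbers were taken from the labels. The authors deposited raw counts per Ensembl gene. The submitters' processing notes name STAR, HTSeq 0.11.2 and the genome GRCh38 (hg38). The STAR version, the annotation release and whether counting used strand were not given in the sources used here, so antisense and overlapping genes may share reads. Of 60617 identifiers, 60596 had a symbol, and 58542 had coordinates in GENCODE v29. The mitochondrial genome's genes were at 0 counts throughout.

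The test was edgeR 4.0.16 under R 4.3.3 (glmQLFit and glmQLFTest, TMM factors, filterByExpr by group) with 1 coefficient per group and 4 residual degrees of freedom, on the contrast of the mean of the 3 knockouts with WT. P-values were adjusted by Benjamini-Hochberg over the 17527 genes tested, and calls were made at 0.05. SE is the log2 change divided by the square root of F. Levels are TMM-scaled CPM, and 3 counts equal 0.107 to 0.195 CPM. The script was tested on simulated data. Replicates differed by more than sampling noise (chi-square per degree of freedom 7.88 to 15.8) and were kept apart.

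The members and gene lists were chosen with earlier results of these data known. Named genes are the 3 targets, JUN, RHOB and EIF5, the 15 rises and 15 falls of at least 5 CPM ranked by the knockout that changed least, up to 4 members per list by adjusted p, 2 genes on each side of the edge, and the 5 most even genes changed at least 2-fold. Exceptions are stated. Lists share members. Of the ranked rises 1, of the gene lists 2, and some markers are not reported here. Alternatives were another scaling (DESeq2 size factors, upper quartile), DESeq2 1.42.0, other filters, thinning, a replicate block, a 2-group fit, stricter thresholds, and leaving out each library or knockout.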

Additional observations from a re-analysis of the deposited data

Results flagged for a closer look

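Among 32 named genes whose values over the 6 knockout libraries were checked for a library far from the others, 2 had one, and chance flags about 1 in 20 such groups. SAMD9 was lowest in sgKDM5C replicate 1, at 5.17 CPM, with the next library at 8.28 CPM and the highest at 10.1 CPM. TJP3 was lowest in sgKMT2B replicate 1, at 1.73 CPM, with the next at 3.13 CPM and the highest at 4.06 CPM. The SAMD9 value is the knockout library nearest to WT, and the TJP3 value is the one farthest from it.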

How the results depend on the processing

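Of the 170 named genes, none changed direction under any alternative. Most of them were picked from the common response, whose rule already places every knockout library on the same side of WT. The unchanged direction thus follows largely from that choice and is no separate test. The call was kept by 169 or 170 with DESeq2, other scalings, no filter, thinning and the replicate block. It was kept by 150 without WT replicate 2 and by 78 in the 2-group fit. The replicate numbers were not taken to pair WT with the knockouts, although those of the knockouts varied together: the replicate 1 minus replicate 2 differences of WT correlated with those of the knockouts at -0.10, -0.03 and 0.03, and those of the knockouts with each other at 0.48, 0.32 and 0.31. With the replicate block, 2435 genes were called higher and 3037 lower, and the common response had 1684 rises and 1854 falls, 3346 of its genes shared with the fit without the block.

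The 2-group fit called 283 higher and 274 lower (283 and 272 in the common response), only replicate 1 of each knockout 45 and 48, and only replicate 2 of each 2 and 6, where RHOB had a log2 change of -2.53 (adjusted p = 0.0783). These fits use fewer libraries or groups, and the cause was not tested. Leaving out 1 library at a time gave 1048 to 2052 genes called higher and 1614 to 2605 lower, 966 to 1936 common rises and 1315 to 1989 common falls, with the lowest of each without WT replicate 2. It gave 2417 to 4412 genes above both WT libraries and 2398 to 4067 below, 318 to 866 called higher and 288 to 688 lower in each knockout, 4436 to 7076 differing among knockouts, and 666 to 1803 of these in the common response. The highest counts above and below WT came from leaving out a WT library. There the side requirement was against the 1 WT library left, not both, and so was looser. Without WT replicate 1, 4412 genes lay above and 4067 below, and without WT replicate 2, 3408 and 3431. A side requirement of 1.2 times left 681 rises and 614 falls, and an adjusted p under 0.01 left 928 rises. Without sgKDM5C, 1014 genes were called higher and 983 lower in each remaining knockout, and 873 and 888 lower without sgKDM6A or sgKMT2B. Without sgKDM6A 3702 genes, and without sgKMT2B 3077 genes (645 in the common response), differed between the remaining knockouts.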

Other observations

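Zinc finger genes with a ZNF symbol, a group picked after their values were seen, stood among the rises. Of 438 tested, 125 rose (28.5%) and 16 fell (3.65%), beside 9.11% and 10.1% of all genes, with a median log2 change of 0.29. On chromosome 19, where many of them lie in clusters, 60 of 199 rose and 5 fell. ZNF780B was at 1.2 and 1.43 CPM in WT and 4.96 to 6.62 CPM in the knockouts, and ZNF181 at 1.69 and 1.75 CPM and 4.44 to 7.53 CPM. The group's median transcript GC content was 43.5%. Without WT replicate 2 fewer of them rose, as did fewer of all genes. In the 2-group fit 30 rose and 3 fell, beside 283 and 272 of all genes tested. With the GC offset 120 rose and 17 fell, beside 1689 and 1671 of all genes tested. The part of base composition in these values was not tested beyond that offset.

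Noncoding RNAs of the nucleus and of growth arrest had 6 falls (31.6%) and 2 rises (10.5%) among 19. SNHG1, a host of small nucleolar RNAs, was at 142 and 165 CPM in WT and 59.7 to 116 CPM in the knockouts (log2 change -0.83, SE 0.11), and SNHG29 fell by 0.56. TUG1 rose from 49.6 and 46 CPM to 66.9 to 96.1 CPM (0.80, SE 0.09), and NORAD, which binds Pumilio proteins, by 0.64. SNHG1 and NORAD were not called in the 2-group fit. Among NF-kappaB genes, NFKB2 was at 119 and 118 CPM in WT and 46.2 to 77.9 CPM in the knockouts (-0.96, SE 0.11), while NFKBIA, an inhibitor of NF-kappaB, rose from 9.75 and 11.8 CPM to 13.3 to 24.6 CPM (0.89, SE 0.17, lost in the 2-group fit). By chromosome, the median pooled log2 change lay between -0.12 (chromosome 13) and 0.08 (chromosome 18). In single knockouts the medians reached -0.39 for chromosome 13, -0.33 for chromosome 10 and 0.29 for chromosome 20 in sgKMT2B, and 0.28 for chromosome 9 and 0.25 for chromosome 18 in sgKDM6A.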
